A study of Mus musculus with 2 samples.

Results

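The d8 cells with high Lox and Ccl2 were the 1500 cells, of 9627 tagged d8 cells and of 17720 cells in all, that had the highest score for Lox, Ccl2, Ccl7, Crabp1, Tfpi2, Bgn and Il1rl1. The score of a cell was the mean over the 7 genes of log(1 + reads per 10000 reads of the cell). These cells are called Lox and Ccl2 cells below. They made up 15.6% of the d8 cells. Because measured levels of these cells chose them, every level of the Lox and Ccl2 cells set against the other 8127 d8 cells is a description of the chosen cells.

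Fibroblasts are the cells of connective tissue that build and remodel the extracellular matrix. They secrete fibrillar collagens, which lysyl oxidase cross-links, and they degrade matrix with metalloproteinases that are held in check by tissue inhibitors. They also answer inflammatory signals by secreting chemokines that draw in monocytes, neutrophils and eosinophils. Mouse embryonic fibroblasts (MEFs) are widely used as a feeder layer under pluripotent cells.

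The study compared 5 mouse cell populations in 1 single-cell RNA-seq experiment on the way from primed to naive pluripotency. The naive population was an embryonic stem cell line carrying Rex1-GFP, and the primed population was the epiblast stem cell line Oct4GIP. The d8 and d16 populations were primed cells after 8 and 16 days with AICAR plus LIF, and the d16+10p population was d16 cells taken through 10 passages in 2iL, a medium for naive cells that contains LIF. AICAR activates AMPK, the energy-sensing kinase, and LIF is a cytokine that sustains naive stem cells. The strain given for the samples was 129/Ola. Each population was a single tagged sample in the same pooled library, so no difference has a replicate check and no test was made. By the study's methods, primed cells were moved onto MEF feeders the day before AICAR and LIF were added, and the feeders stayed during the treatment. The tag, attached through antibodies to CD9 and CD63 on the cell surface, marks the culture and not the cell type, so d8 cells can include feeder cells, and a feeder origin and an origin from the primed cells cannot be told apart by the tag.

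The table held 307121033 reads in 33963 genes, with 3179 to 111822 reads per cell. The Lox and Ccl2 cells had 33647321 reads, a median of 19323.5 reads and 4496 genes per cell, against 14984 reads and 4065 genes in the other d8 cells. Mitochondrial genes took 5.34% of their reads and 6.79% of those of the other d8 cells. No cell number was shared between populations. The counts were treated as reads, so the 95% intervals (exact Poisson for levels, exact Clopper-Pearson for shares) cover counting error only. Levels are in CPM, reads per 1000000 reads summed over a group of cells, and ratios are log2 ratios of CPM with 1 CPM added to both. Comparison levels were read in the 500 other d8 cells with the highest score for smooth muscle, epithelial or macrophage markers, named below by those markers. A gene was called higher or lower at a ratio of at least 2-fold, among the 9812 genes with at least 10 CPM over all d8 cells after the 7 score genes and the mitochondrial genes were left out. The filter took all d8 cells together. A gene under 10 CPM in the other d8 cells could thus pass through the Lox and Ccl2 cells alone, as Ccl11 did. Counts of higher genes in the lists below are therefore partly set by the filter.

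The score separated no clean class. The last cell taken scored 1.4199 and the first one left out 1.4184, the highest score was 3.27, and 349 d8 cells lay within 0.1 of the cut. Between the main peak and the cut the distribution was thinnest at scores of 0.7 to 0.8, with 113 cells, and 867 of the 2367 d8 cells above it fell below the cut. The Lox and Ccl2 cells are therefore a range of a score and not a type. All 7 genes had a read in 668 of them, 6 genes in 476, 5 in 270, 4 in 83 and 3 in 3 cells, whereas 607 other d8 cells had no read of any.

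**Figure D1:**
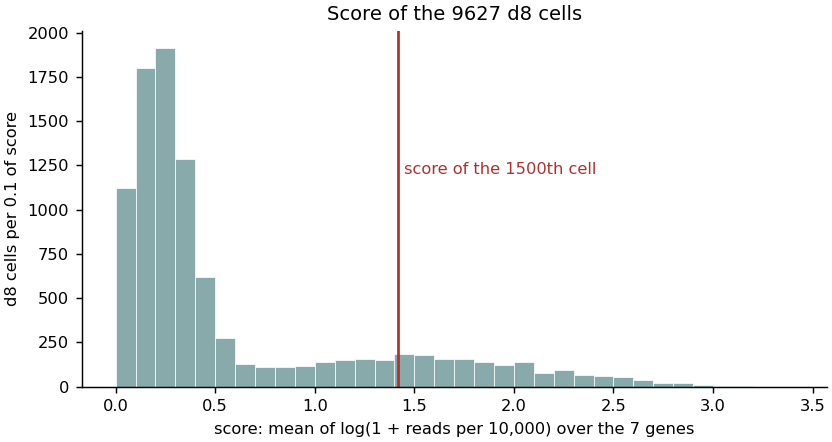
Number of d8 cells (y axis) in each 0.1 of the score (x axis), with the score of the 1500th cell as a line. Most of the 9627 cells score below 0.5, the count dips between 0.7 and 0.8, and the line cuts through a broad second group of cells.

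The score genes were, as the rule required, far higher in these cells. Lox, which cross-links collagen and elastin, was at 1464 CPM (interval 1451 to 1477) in the Lox and Ccl2 cells, at 680 CPM in the next 1500 d8 cells by score and at 50.1 CPM in the remaining 6627. The monocyte chemokines Ccl2 and Ccl7 were at 1284 and 769 CPM, then at 159 and 100.4 CPM in the next 1500 cells, and at 31.0 and 19.4 CPM in the remaining cells. Lox was thus still high in the next 1500 cells, whereas Ccl2 and Ccl7 were several-fold lower there than in the chosen ones. Crabp1, a carrier of retinoic acid in the cytoplasm, was at 1914 CPM against 113 CPM in the other d8 cells. Bgn (biglycan, a proteoglycan of the matrix) was at 1716 against 203 CPM, Tfpi2 (an inhibitor of serine proteases) at 747 against 42.1 CPM, and Il1rl1 (the receptor of interleukin-33) at 514 against 37.9 CPM.

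Outside the score, 500 of the 9812 genes (5.1%) were higher and 939 (9.57%) were lower in the Lox and Ccl2 cells than in the other d8 cells. Of these, 146 and 80 differed at least 4-fold. The median ratio of all 9812 genes was -0.21, so ratios of gene lists are to be read against that value. With TMM scaling, which centres the bulk of the genes, the median was 0.04, and 735 genes were higher and 546 lower, so that higher genes made up 57.4% of the calls in place of 34.7%. Of the genes named below as lower, Col18a1, Nid2, Tgm2, Cxcl10, Cx3cl1, Il1rn, Rsad2, Igfbp5, Rbp4 and Mki67 were within 2-fold with TMM scaling. Poisson intervals spanned at most 5.33% of the level to either side in the Lox and Ccl2 cells for the 25 genes with the largest ratios.

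**Figure D2:**
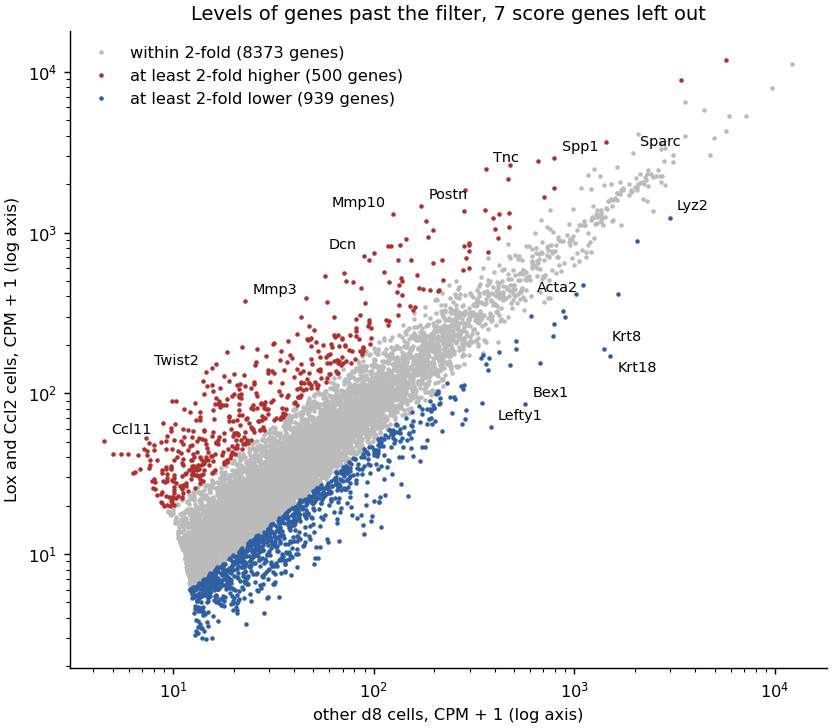
Level of each of the 9812 genes in the other d8 cells (x axis) and in the Lox and Ccl2 cells (y axis), both as CPM + 1 on log axes, coloured by the 2-fold call. Mmp3, Mmp10, Ccl11 and Postn lie far above the bulk of the genes, and Krt8, Krt18, Bex1 and Lefty1 far below it.

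Matrix metalloproteinases were among the highest genes outside the score. Mmp3 (stromelysin-1) was at 374 CPM (367 to 380.1) in the Lox and Ccl2 cells and 21.9 CPM (21.1 to 22.6) in the other d8 cells, a log2 ratio of 4.03 and the largest among the 9812 genes, from which the score genes were left out. Mmp10 (stromelysin-2) was at 1305 against 124 CPM, a log2 ratio of 3.38, and the collagenase Mmp13 at 130.2 against 19.1 CPM, a log2 ratio of 2.70. The 3 genes lie in 1 cluster on chromosome 9 (GRCm38, gene models of GENCODE M21), between 7272514 and 7510240. Their neighbours there did not all go the same way: Mmp12, known as the macrophage elastase, was at 354 against 309 CPM and at 2626 CPM in d8 cells with macrophage markers, and Mmp8 was at 22.8 against 23.7 CPM. Mmp1a, a copy of interstitial collagenase between Mmp3 and Mmp10, was at 10.6 against 0.677 CPM and missed the filter. The RefSeq promoters of the 3 genes (GRCm38.p6, plus strand, 250 bases before and 50 after the gene start) are shown because these neighbours had high ratios together. Capitals mark TGANTCA, the letters of the AP-1 site (the same on both strands), at which Fos and Jun proteins bind. Mmp3 is chr9:7445572-7445871, Mmp10 is chr9:7502092-7502391 and Mmp13 is chr9:7272264-7272563.
Mmp3: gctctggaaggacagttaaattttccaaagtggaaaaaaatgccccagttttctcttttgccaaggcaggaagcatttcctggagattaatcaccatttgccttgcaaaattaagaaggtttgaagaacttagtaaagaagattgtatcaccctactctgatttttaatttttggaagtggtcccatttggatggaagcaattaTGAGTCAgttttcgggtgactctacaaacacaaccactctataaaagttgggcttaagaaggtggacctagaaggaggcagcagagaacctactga
Mmp10: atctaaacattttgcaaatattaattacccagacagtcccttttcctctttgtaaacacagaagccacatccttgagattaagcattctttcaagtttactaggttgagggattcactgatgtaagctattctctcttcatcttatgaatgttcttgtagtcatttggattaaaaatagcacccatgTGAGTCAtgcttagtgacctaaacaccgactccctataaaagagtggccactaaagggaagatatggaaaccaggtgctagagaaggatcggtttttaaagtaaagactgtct
Mmp13: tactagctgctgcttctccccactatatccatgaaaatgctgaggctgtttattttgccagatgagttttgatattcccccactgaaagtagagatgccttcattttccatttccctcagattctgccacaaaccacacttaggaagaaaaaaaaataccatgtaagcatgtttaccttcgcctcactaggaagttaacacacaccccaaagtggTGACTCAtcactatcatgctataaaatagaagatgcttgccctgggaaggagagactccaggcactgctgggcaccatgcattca
Each held the letters 1 time, starting 46, 63 and 35 bases before the gene start in that order. Of all 32851 promoters of this length, 2565 (7.81%) held them, and a match is a description of the letters and not of a bound site. The promoters of Mmp12 and Mmp8 are not given, so whether the letters set these genes apart from those neighbours was not tested. Of the Fos and Jun genes, Fosl1 was at 30.4 against 8.27 CPM, a log2 ratio of 1.76, whereas Fos (378 against 566 CPM), Jun (394 against 553 CPM) and Junb (84.8 against 84.8 CPM) were within 2-fold.

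Of 20 proteases and inhibitors of the matrix that passed the filter in a list of 25, 11 were higher and 0 lower, with a median log2 ratio of 1.40. Adam12, a metalloprotease of mesenchyme, was at 57.5 against 8.81 CPM. The inhibitors were high as well, with Timp1, a blocker of metalloproteinases, at 931 against 186 CPM, Serpinb2, an inhibitor of plasminogen activators, at 107 against 23.5 CPM and Timp2 at 835 against 297 CPM. Serpine2 (379 against 383 CPM) and Plaur, the receptor of urokinase (26.5 against 35.5 CPM), were within 2-fold. Mmp3 was unevenly spread: after every cell was thinned to 5000 reads, which left out 154 Lox and Ccl2 cells and 601 other d8 cells, 25.9% of the Lox and Ccl2 cells had an Mmp3 read (23.5 to 28.3%), against 6.75% of the other d8 cells and 6.16% of d8 cells with epithelial markers. Without thinning these shares were 41.3, 16.8 and 16.8%. Mmp10 was found in 74.6% of the thinned Lox and Ccl2 cells, in 23.4% of the other d8 cells and in 19.3% of the cells with epithelial markers (84, 47.5 and 55% unthinned). The shares in cells with epithelial markers are given for comparison. Whether they come from free RNA, spread reads or expression was not tested.

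Matrix proteins and their modifying enzymes formed the broadest group. Of 27 non-collagen matrix genes that passed the filter in a list of 36, 15 were higher and 2 lower, with a median log2 ratio of 1.26. Tnc (tenascin-C, a glycoprotein of wounds and tendons) was at 2491 against 362 CPM (log2 ratio 2.78). Postn (periostin) was at 1457 against 171 CPM (3.09) and Fbln2 (fibulin-2) at 1847 against 285 CPM (2.69). Fbln5, an organiser of elastic fibres, was at 118 against 13.1 CPM (3.08), Dcn (decorin, which binds collagen fibrils) at 713 against 88.6 CPM (2.99) and Thbs2 (thrombospondin-2) at 917 against 143 CPM (2.67). Fn1 (fibronectin, 1885 against 1081 CPM) and Sparc (3106 against 1959 CPM), which many mesenchymal and epiblast cells make, were within 2-fold. The 2 lower genes were Fbn2, a fibrillin of the embryo, and Nid2 of the basement membrane, at 15.5 against 39.0 and 24.3 against 58.1 CPM. Postn was read in 88.9% of the thinned Lox and Ccl2 cells, 29.8% of the other d8 cells and 23.8% of the cells with epithelial markers (93.3, 55.0 and 61.4% unthinned). In d8 cells with smooth muscle markers the share was 44.6% (69.6% unthinned).

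Collagen chains differed less than these proteins. Of 18 that passed the filter in a list of 32, 9 were higher and 2 lower, with a median log2 ratio of 0.98. Without the filter the median was 0.009, so the list was not shifted as a whole. Col12a1, which coats fibrils, was at 260 against 46.6 CPM (2.46), Col5a2, which sets fibril diameter, at 207 against 50.4 CPM (2.01) and Col16a1 at 80.3 against 25.2 CPM (1.63). The main chains of fibrillar collagen were only moderately higher, Col1a1 at 431 against 207 CPM (1.05) and Col1a2 at 596 against 297 CPM (1.01), and Col3a1 was at 138 against 142 CPM. The cartilage chain Col2a1 (22.3 against 113 CPM) and the basement membrane chain Col18a1 (66.2 against 155 CPM) were lower.

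Among 16 enzymes of collagen processing that passed the filter, 4 were higher and 2 lower (median 0.48). The higher ones were Loxl1 (118 against 17.9 CPM, 2.66) and Loxl3 (49.2 against 12.2 CPM, 1.93), which are relatives of Lox, Pcolce (167 against 53.2 CPM, 1.63), which speeds the cutting of procollagen, and the prolyl hydroxylase P4ha3 (33.6 against 11.6 CPM, 1.46). The lysyl hydroxylase Plod2 (79.7 against 199 CPM) and the transglutaminase Tgm2 (21.9 against 50.2 CPM) were lower, and Loxl2 was at 170 against 233 CPM. Cross-linking genes thus did not move as 1 block.

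Chemokines came next. Besides Ccl2 and Ccl7, 9 of a list of 19 passed the filter, of which 5 were higher and 3 lower (1 lower with TMM scaling), with a median of 2.23. Without the filter the median was 1.02. Ccl11 (eotaxin, which attracts eosinophils) was at 49.5 against 3.53 CPM (3.48), Cxcl1, which attracts neutrophils, at 152 against 15.4 CPM (3.22) and Ccl8 at 143 against 14.6 CPM (3.21). Cxcl14 was at 84.8 against 15.1 CPM (2.41) and Cxcl12, a stromal chemokine for blood progenitors, at 160.3 against 33.3 CPM (2.23). The lower ones, Ccl9 (21.1 against 54.1 CPM), Cx3cl1 (4.52 against 11.8 CPM) and the interferon-induced Cxcl10 (10.3 against 25.004 CPM), had log2 ratios of -1.32, -1.22 and -1.20. Ccl2, Ccl7, Ccl11, Ccl12 and Ccl8 are neighbours on chromosome 11, from 82035571 to 82116799, and all 5 had high ratios, although Ccl12 (5.97 against 0.335 CPM) missed the filter.

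The chemokines came from different numbers of cells. Over 1346 thinned Lox and Ccl2 cells the reads of Ccl2 and Ccl7, both in the score, were related with a Spearman rho of 0.52, and Ccl2 and Cxcl1 with 0.26. These cells share a library and were selected on Ccl2 and Ccl7. Ccl11 was found in 5.05% of the thinned cells, against 1.57% of the other d8 cells and 2.46% of those with epithelial markers (10.3, 4.31 and 5% unthinned). The counting intervals of the first and last of the thinned shares overlapped (3.94 to 6.36% and 1.28 to 4.26%), and its level in single Lox and Ccl2 cells reached 4766 CPM. Its reads thus came from a small share of the cells.

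Inflammatory response genes were mixed. Of 18 cytokine, interleukin-1 and NF-kB genes that passed the filter in a list of 28, 7 were higher and 1 lower (median 0.63). Vcam1, an adhesion molecule for leukocytes, was at 561 against 70.2 CPM (2.98), Ptgs2 (cyclooxygenase-2) at 835 against 133 CPM (2.64) and Ptges, the prostaglandin E synthase after it, at 92.4 against 15.3 CPM (2.52). Nfkbiz, a nuclear regulator of NF-kB (197 against 47.7 CPM), Il6 (33.7 against 8.23 CPM), Saa3 (43.5 against 10.8 CPM) and Csf1, the macrophage growth factor (427 against 130.1 CPM), had log2 ratios of 2.02 to 1.71. Ptgs1 (cyclooxygenase-1), among the 25 highest genes, was at 187 against 25.1 CPM. The core genes of the pathway were within 2-fold, with Nfkbia at 216 against 148 CPM, Nfkb1 at 30.5 against 35.2 CPM and Relb at 24.0 against 19.2 CPM. The lower gene was Il1rn, the antagonist of interleukin-1 (21.6 against 50.1 CPM).

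Interferon-stimulated genes did not share a direction: of 7 that passed the filter, 1 was higher (Bst2, 55.9 against 19.5 CPM) and 3 were lower (Gbp2, Gbp3 and Rsad2, with log2 ratios of -1.52, -1.46 and -1.02). Of 8 complement genes only C2 passed the filter, at 31.1 against 44.0 CPM.

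Growth factors and their regulators followed. In the growth factor and IGF list, 20 of 25 passed the filter, with 8 higher and 2 lower (median 0.93). Fgf7 (keratinocyte growth factor, a signal from mesenchyme to epithelium) was at 88.3 against 8.86 CPM (3.18), Ereg (an EGF receptor ligand) at 59.2 against 10.2 CPM (2.42), Fgf2 at 88.0 against 15.9 CPM (2.40) and Igfbp7 at 676 against 151 CPM (2.15). The IGF-binding genes Igfbp2 (86.4 against 343 CPM, -1.98) and Igfbp5 (164 against 339 CPM, -1.04) were the lower ones. Of 18 TGF-beta and YAP targets, 9 were higher and 2 lower (median 0.99). Among them were Ltbp2, a latent TGF-beta binding protein family member (75.3 against 11.1 CPM, 2.66), Inhba, the activin A subunit (1365 against 279 CPM, 2.29) and the YAP kinase Lats2 (114 against 33.8 CPM, 1.73). Ajuba (21.3 against 66.1 CPM) and the ligand Tgfb2 (54.8 against 149 CPM) were lower.

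The BMP and Wnt genes split evenly, with 6 higher and 6 lower of 13 that passed the filter and a median of -0.58. The BMP antagonist Grem1 (1179.9 against 181 CPM, 2.70) and the Dickkopf relative Dkk3 (50.4 against 13.4 CPM, 1.83) were higher, whereas the Wnt antagonist Dkk1 (4.31 against 28.5 CPM, -2.47), the ligand Bmp4 (6.03 against 28.5 CPM, -2.07) and another BMP antagonist, Nog (9.06 against 40.9 CPM, -2.06), were lower. Antagonists of BMP thus lay on both sides. Of 7 retinoid genes beside Crabp1, 1 was higher and 2 were lower (the retinol dehydrogenase Rdh10, 20.2 against 65.1 CPM, and Rbp4, 6.98 against 17.2 CPM). Crabp2, the close relative of Crabp1, was at 54.1 against 42.5 CPM.

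Mesenchymal transcription factors were among the clearest genes outside the score. Of 15 that passed the filter in a list of 38, 8 were higher and 1 lower (median 1.13), and 23 lay below the filter. Without the filter the median was 0.38. Prrx1, a homeobox factor of limb and head mesenchyme, was at 675 against 93.3 CPM (2.84) and Twist2, a repressor active in skin and bone precursors, at 134 against 13.7 CPM (3.20). Tbx15 (44.1 against 8.23 CPM, 2.29), Ebf1 (81.6 against 16.2 CPM, 2.26), Snai1 (28.3 against 7.07 CPM, 1.86) and Nfix (56.3 against 14.9 CPM, 1.85) followed. Prrx1 was read in 86.5% of thinned Lox and Ccl2 cells (84.5 to 88.3%), 21.0% of the other d8 cells and 12.5% of those with epithelial markers (93.1, 40.6 and 38.4% unthinned). In d8 cells with smooth muscle markers the share was 35.7% (60.4% unthinned).

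Hox genes record the level along the body axis from which a cell came. Only 6 of 39 passed the filter, and 4 of them were higher: Hoxb9 (85.7 against 11.8 CPM, 2.76), Hoxc8 (48.7 against 7.66 CPM, 2.52), Hoxb4 (26.9 against 7.10 CPM, 1.78) and Hoxc6 (32.7 against 11.9 CPM, 1.39). Of these, Hoxc8 and Hoxb4 were under 10 CPM in the other d8 cells and passed through the Lox and Ccl2 cells. The median log2 ratio was 1.59, and 1.02 without the filter. Hoxc13 (3.80 against 16.3 CPM) was among the lower ones. The posterior members Hoxa13, Hoxb13 and Hoxd13 had few reads, at 0.0594, 0.149 and 0.238 CPM in the Lox and Ccl2 cells. Hoxb9 was read in 27.5% of thinned Lox and Ccl2 cells and in 4.40% of the other d8 cells (47.8 and 10.7% unthinned), and in 1.64% of those with epithelial markers (8.4% unthinned). In d8 cells with smooth muscle markers the share was 7.62% (21.4% unthinned).

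Surface proteins of mesenchyme gave 16 higher and 1 lower gene of 26 that passed the filter (median 1.27). Thy1, a marker of fibroblasts, was at 499 against 71.5 CPM (2.79), the collagen-binding integrin chain Itga2 at 49.7 against 8.19 CPM (2.46), the mesenchymal cadherin Cdh11 at 448 against 85.0 CPM (2.38), podoplanin (Pdpn) at 217 against 45.2 CPM (2.24) and the collagen receptor Ddr2 at 97.0 against 20.4 CPM (2.20). The laminin-binding integrin chain Itga3 was lower (4.96 against 25.2 CPM, -2.14). The targets of the tag antibodies were within 2-fold, with Cd9 at 259.5 against 199 CPM and Cd63 at 1961 against 1406 CPM. Of 8 genes of the LIF and STAT3 pathway that passed the filter, 1 was higher: Osmr, the oncostatin M receptor (98.3 against 13.3 CPM, 2.80), while Lifr, the LIF receptor, was at 11.1 against 13.6 CPM and Stat3 at 143 against 80.7 CPM.

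Further genes among the 25 highest had no list. They were Olr1, the receptor of oxidised lipoprotein (178 against 17.6 CPM, 3.27), Tm4sf1 (536 against 56.4 CPM, 3.23), the membrane protein Lrrc15 (192 against 21.0 CPM, 3.13), the proprotein convertase Pcsk5 (88.5 against 9.31 CPM, 3.12), the guidance protein Flrt2 (389.8 against 45.2 CPM, 3.08), Itgbl1 (41.0 against 4.53 CPM, 2.92), the G protein subunit Gng11 (747 against 99.1 CPM, 2.90), the serotonin receptor Htr2a (64.5 against 7.92 CPM, 2.88) and Mcpt8, a protease known from basophils (111 against 14.7 CPM, 2.84). Another 2 were predicted genes. The prolactin relatives Prl2c2 and Prl2c3, neighbours on chromosome 13, were at 823 and 818 CPM against 117 and 121 CPM. They are near-identical copies whose reads the counting could share, so the split between them is uncertain.

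**Figure D3:**
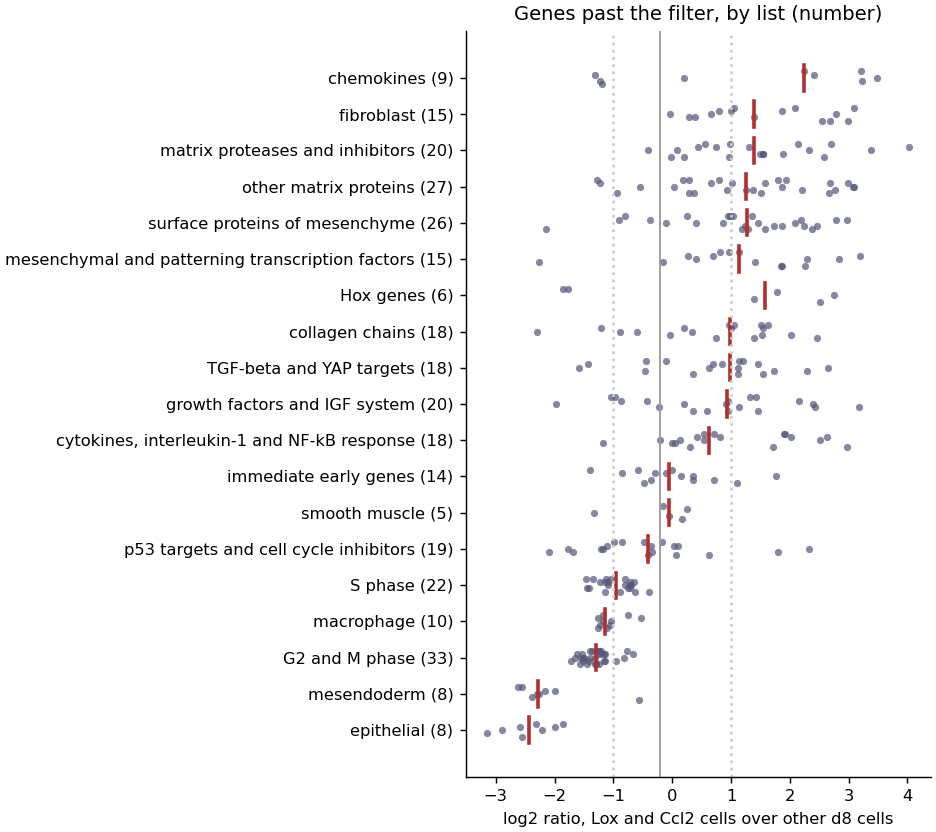
Log2 ratio of each gene of 19 lists that passed the filter (points, x axis), with the median of the list as a bar, the median of all 9812 genes (-0.21) as a solid line and 2-fold in both directions as dotted lines. Chemokines, Hox genes and proteases have the highest medians, and epithelial, mesendoderm and G2 and M phase genes the lowest. These medians are of genes past the filter. Without it the median was 1.02 for chemokines, 1.02 for Hox genes, 1.25 for proteases and 1.87 for fibroblast markers. The medians of the smooth muscle list and the immediate early list are just below 0 and turn positive with TMM scaling.

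The Lox and Ccl2 cells had few reads of proliferation genes. Of 33 G2 and M phase genes, 29 were lower and 0 higher (21 lower with TMM scaling), with a median of -1.30, and of 22 S phase genes that passed the filter 11 were lower and 0 higher (4 lower with TMM scaling), with a median of -0.96. The summed G2 and M level was 732 CPM against 1791 CPM in the other d8 cells. Top2a, which untangles DNA in mitosis, was at 55.9 against 148 CPM and Mki67 at 21.8 against 49.9 CPM. After thinning, 4.09% of the Lox and Ccl2 cells (3.09 to 5.29%) had 10 or more G2 and M reads, against 28.7% of the other d8 cells and 54.1% of primed cells. The share was 3.36% in d8 cells with smooth muscle markers and 2.96% in those with macrophage markers, so a low share was not particular to the Lox and Ccl2 cells.

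Cell cycle inhibitors and p53 targets did not share a direction, with 2 higher and 6 lower of 19 that passed the filter (3 lower with TMM scaling) and a median of -0.41. The higher genes were Cdkn1c (58.1 against 10.8 CPM, 2.32), an inhibitor of cyclin-dependent kinases, and Cdkn2a (183 against 51.7 CPM, 1.80), the p16 and ARF locus known to rise with the age of fibroblast cultures. The p53 targets Perp (63.7 against 275 CPM), Bbc3 (12.3 against 44.4 CPM) and Trp53inp1 (149 against 479 CPM) were lower, and Cdkn1a, the best known target, was at 841 against 1172 CPM. Cdkn2a was read in 51.5% of thinned Lox and Ccl2 cells and 16.6% of the other d8 cells (78.1 and 34.6% unthinned), and in 19.7% of those with epithelial markers (44.6% unthinned). In d8 cells with smooth muscle markers the share was 29.8% (59% unthinned). Cdkn2a was at 165 CPM in the last 500 cells taken and at 160 CPM in the 500 cells just below the cut.

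In the immediate early list, 2 of 14 genes that passed the filter were higher (Fosl1 and Ier3, at 182 against 84.6 CPM) and 1 was lower (Atf3, 51.5 against 137 CPM). Of 18 imprinted genes, 2 were higher, the noncoding H19 (78.6 against 10.3 CPM, 2.82) and Cdkn1c, and 5 were lower (3 with TMM scaling), among them Phlda2 (7.34 against 40.4 CPM, -2.31) and Peg10 (73.9 against 243 CPM, -1.71). Igf2, the neighbour of H19 on the chromosome, was at 204 against 275 CPM.

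The genes with the lowest ratios included keratins and signals of the epiblast. Krt18 was at 169 CPM (165 to 174) against 1504 CPM (1498 to 1511), a log2 ratio of -3.14, and its keratin partner Krt8 at 189 against 1407 CPM (-2.89). Bex1 (84.6 against 566 CPM, -2.73), the keratinocyte factor Sfn (21.8 against 147 CPM, -2.70), the FGF carrier Fgfbp1 (13.6 against 107 CPM, -2.88) and the tight junction gene Cldn6 (15.1 against 96.4 CPM, -2.59) followed. The epiblast signal Fgf5 (12.3 against 87.9 CPM, -2.74), the Nodal antagonist Lefty1 (60.8 against 381 CPM, -2.63), Nodal itself (8.44 against 51.5 CPM, -2.47) and T (brachyury, the streak factor, 14.1 against 87.7 CPM, -2.56) were low as well. Dsp, of desmosomes, was at 16.3 against 96.4 CPM, Krt19 at 7.61 against 49.6 CPM, Card10 at 4.43 against 32.5 CPM, the Nodal co-receptor Cfc1 at 2.67 against 22.0 CPM and the pepsinogen Pga5 at 3.27 against 27.4 CPM.

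The label of fibroblast-like cells was described with marker lists. The score used matrix genes such as Lox and Bgn, so high ratios of fibroblast markers were partly set in advance and are no test of the label. Of 15 fibroblast markers that passed the filter, 10 were higher and 0 lower (median 1.39), among them Pdgfra (52.1 against 11.4 CPM), Pdgfrb (32.6 against 8.19 CPM) and S100a4 (169 against 28.1 CPM). Lum (21.1 against 2.47 CPM) and Fap (18.9 against 3.51 CPM) missed the filter, and Vim (5786 against 4415 CPM) and Col3a1 were within 2-fold. Median summed fibroblast marker levels per cell were 16255 CPM in the Lox and Ccl2 cells, 7064 CPM in the other d8 cells and 14748 CPM in d8 cells with smooth muscle markers. The sum, to which Vim contributed much, thus did not set the Lox and Ccl2 cells apart from the latter. Single markers varied. Dcn was at 713 against 90.7 CPM in the cells with smooth muscle markers and Postn at 1457 against 318 CPM. Col1a1 was read in 64.3% of thinned Lox and Ccl2 cells and 68.4% of those with smooth muscle markers.

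Markers of other cells were mostly not higher than in the other d8 cells, with Runx2 of bone as an exception. All 8 epithelial genes were lower (median -2.44), with a median per cell of 322 CPM, close to the 307 CPM of cells with macrophage markers. Of 10 macrophage genes 8 were lower (2 with TMM scaling), and the median per cell was 236 CPM, against 271 CPM in cells with epithelial markers and 37789 CPM in the cells with macrophage markers. Lyz2 was read in 55.7% of thinned Lox and Ccl2 cells, 57.8% of the other d8 cells and 55.2% of cells with epithelial markers (85.6, 83.7 and 86.8% unthinned). The share was close to that of cells with epithelial markers, and whether these reads come from expression was not tested. The macrophage sum was not low in every cell, and Lyz2 itself summed to 1235 CPM in the Lox and Ccl2 cells. The summed level of the 10 genes was 1452 CPM, against 375 CPM in cells with epithelial markers, the 95th percentile over cells was 7795 CPM and the highest cell had 61865 CPM.

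The median smooth muscle sum per cell was 610.3 CPM, against 427 CPM in the other d8 cells and 249 CPM in cells with macrophage markers. The summed smooth muscle level was nearly equal, at 1347 CPM against 1360 CPM in the other d8 cells. Of 5 smooth muscle genes that passed the filter, 0 were higher, 1 was lower and 4 were within 2-fold. Among the latter were Acta2 (535 against 594 CPM), Tagln (421 against 353 CPM) and Myl9 (139.7 against 145 CPM). Of 8 mesendoderm genes that passed the filter 7 were lower (median -2.28), and of 6 pluripotency genes 3 were lower, with Pou5f1 at 23.8 against 64.4 CPM, Sox2 at 49.8 against 133 CPM and Tdgf1 at 39.5 against 156 CPM. The pluripotency sum per cell had a median of 209 CPM, against 4639.8 CPM in naive cells below the cut. No endothelial, mesothelial or skeletal muscle gene passed the filter. Of 5 neural genes 1 was lower (Nes, 45.03 against 179 CPM), the endoderm gene Foxa1 was lower (9.48 against 29.1 CPM), Runx2 of bone was higher (40.6 against 19.3 CPM), and of the cardiac genes Actc1 was lower (5.47 against 30.9 CPM). Both adipocyte genes that passed, Lpl and Plin1, were within 2-fold.

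Genes outside the score graded with it. In groups of 500 cells by score, Tnc was at 3119.96, 2486 and 1797 CPM in the groups of the Lox and Ccl2 cells, then at 1393, 946 and 291 CPM. Postn hardly differed within the first groups (1535, 1435 and 1394 CPM) and was at 1178 and 559 CPM in the following 1000 cells. Lyz2 went the other way, from 486 to 1340.4 and 1959 CPM inside the Lox and Ccl2 cells, and Acta2 from 261 to 489 and 886 CPM. Mmp3 went from 529 to 340.3 and 235 CPM and was at 96.7 CPM in the next group. Genes therefore differed in where along the score they dropped, and Tnc, Postn and Prrx1 stayed high in the 1000 cells just below the cut.

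**Figure D4:**
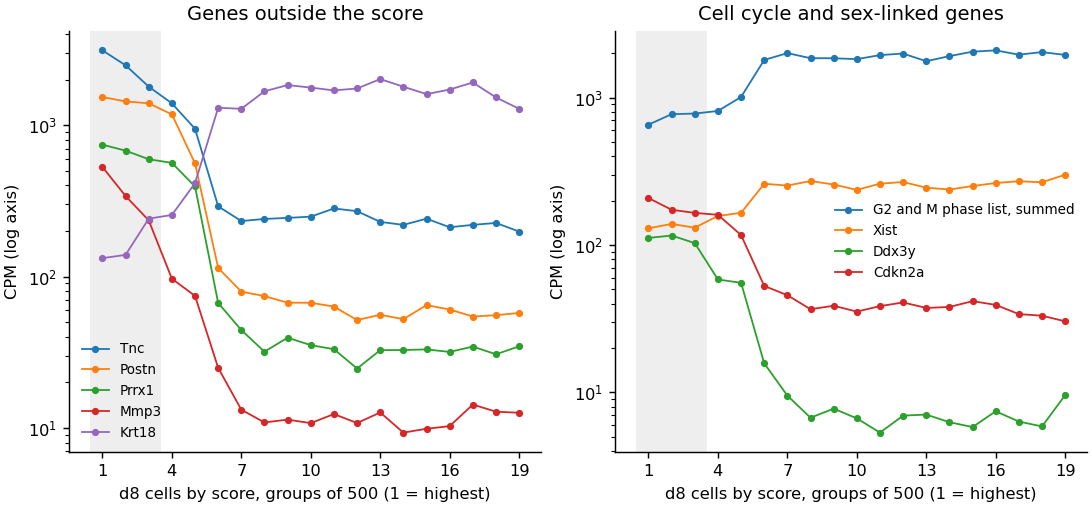
Summed level (CPM, log axes) of genes outside the score in d8 cells ordered by score, in groups of 500 cells (the last has 627), with the Lox and Ccl2 cells shaded. Tnc, Postn, Prrx1, Mmp3, Cdkn2a and Ddx3y are high in the shaded groups and low from group 6 on, where Krt18 and the G2 and M phase sum reach the level of the remaining cells.

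Within the 1346 thinned cells, pairs of genes were mostly weakly related. Acta2 and Tagln had a Spearman rho of 0.45, Crabp1 and Mmp3 0.28, Crabp1 and Acta2 -0.22, Lox and Postn 0.17, Mmp3 and Mmp10 0.08 and Tnc and Spp1 0.04. Spp1 (osteopontin) was at 2888 against 793 CPM in sum, with a median per Lox and Ccl2 cell of 769.7 CPM and a highest value of 53660 CPM. These values are for cells of 1 library, and weak relations in sparse reads are no finding.

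The Lox and Ccl2 cells were also set against these 3 classes of cells with smooth muscle, epithelial or macrophage markers. The cut of the smooth muscle class was reached by 78 Lox and Ccl2 cells, that of the macrophage class by 30 and that of the epithelial class by 1. Together 108 cells reached a cut of another class, and their median was 25463.5 reads. No doublet caller was run beyond the removal of cells by tag that the study made, and whether these cells are doublets was not tested. The 25 highest genes were all at least 2-fold higher than in each class, while 4.77% of all genes were higher against the smooth muscle class, 8.13% against the epithelial class and 11% against the macrophage class. Their median ratios were 2.65, 4.23 and 3.23. The classes are parts of the other d8 cells, against which the 25 genes were ranked, and they do not overlap the Lox and Ccl2 cells by construction. High ratios of these genes were thus largely set in advance, and the counts are a description.

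Against the smooth muscle class, the most similar one in the sum of fibroblast markers, the proteases stood out. Mmp3 was at 374 against 16.1 CPM (4.45), Mmp13 at 130.2 against 5.91 CPM (4.25) and Mmp10 at 1305 against 97.4 CPM (3.73). Postn (1457 against 318 CPM, 2.19) and Prrx1 (675 against 163 CPM, 2.05) differed less. On the other side, Actc1 (cardiac actin) was at 5.47 against 185 CPM (-4.85) and Prnd at 1.99 against 54.8 CPM (-4.22).

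**Figure D5:**
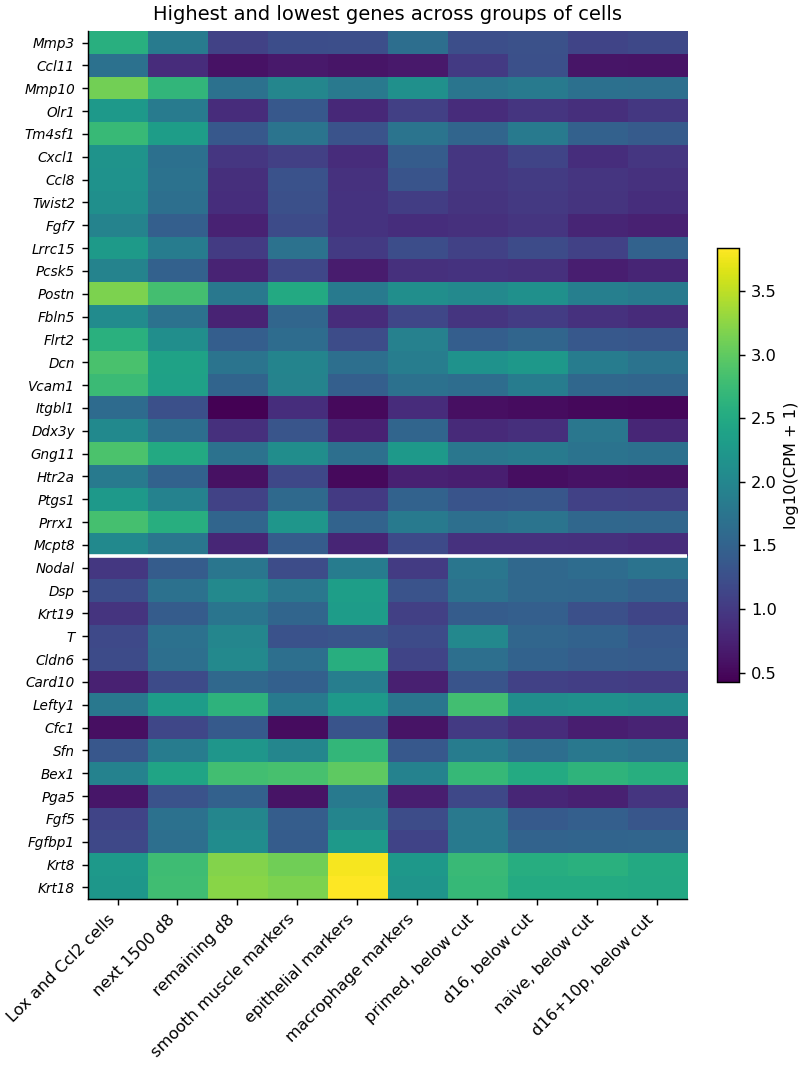
Level, as the colour of log10(CPM + 1), of the 23 named genes with the largest ratios (above the white line) and the 15 with the smallest (below it) in groups of cells (columns). The first column, the Lox and Ccl2 cells, has the highest level of every gene above the line, and the next 1500 d8 cells lie between it and the remaining d8 cells.

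Cells at or above the same cut were rare under the other tags. They were 12 of 801 naive cells (1.498%, interval 0.776 to 2.60%), 54 of 1826 primed cells (2.96%, 2.23 to 3.84%), 36 of 4315 d16 cells (0.834%, 0.585 to 1.15%) and 11 of 1151 d16+10p cells (0.956%, 0.478 to 1.70%), against the 15.6% taken in d8. The d16 share moved with the choices of the score, to 0.417% and 1.67% with 1000 and 2000 d8 cells taken and to 1.40% with a score from thinned cells. By the study's methods, primed cells were on MEFs the day before the treatment began. The study took cells without Oct4 under the primed tag for feeders, so the primed cells past the cut can include feeders too. The 54 primed cells were shallow, with a median of 6264 reads, and whether they carry a wrong tag was not tested.

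The primed cells past the cut were also read for genes that the score did not use. Of the 25 highest genes of the d8 comparison, 24 were at least 2-fold higher in them than in primed cells below the cut (median ratio 3.54), while 8.17% of all genes were. Of the 15 lowest, 14 were at least 2-fold lower, while 21.3% of all genes were. The same score chose these primed cells and the d8 cells in which the genes were ranked. High counts were thus largely set in advance and are a description. Mmp3 was higher in the primed cells past the cut than in the Lox and Ccl2 cells of d8, at 1131 CPM (1051 to 1215). Cck, a peptide hormone, was higher there too, at 403 CPM (356 to 455) against 63.7 CPM in the Lox and Ccl2 cells. Tnc was at 2499 CPM, as in d8 (2491 CPM).

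Of the d16 cells past the cut, 24 of the 25 genes were at least 2-fold higher than in d16 cells below it (median ratio 2.95), while 5.29% of all genes were, and 10 of the 15 lowest were at least 2-fold lower, while 14.3% of all genes were. The exception was Ccl11, with 2 reads in the 36 cells (2.56 CPM, 0.310 to 9.25). Igf2 was at 835 CPM (772 to 902) in them against 204 CPM in the Lox and Ccl2 cells of d8, Fabp7, a fatty acid carrier of neural progenitors, at 225 against 27.8 CPM, Igfbp5 at 686 against 164 CPM and Igfbp2 at 334 against 86.4 CPM. Mmp3 was at 195 CPM (165 to 228). These sums rest on 36 cells of 1 sample, and whether they differ between days beyond such a sample was not tested. The same score chose these d16 cells too, so the count of 24 genes was also largely set in advance.

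Y-linked genes were no part of the score and varied with it. The study lists both the Oct4GIP and the Rex1-GFP line as female (XX), and the source of Y-linked reads in any population was not tested. A read of Ddx3y, Eif2s3y, Uty or Kdm5d was present in 49.7% of the Lox and Ccl2 cells (47.2 to 52.3%), in 35.2% of the next 1500 d8 cells and in 20.3% of the remaining ones. After thinning the shares were 33.7% (31.2 to 36.3%), 20.6% and 7.83%, in the same order. Ddx3y, an RNA helicase that every male cell can express, was at 110.2 CPM (107 to 114), 45.03 CPM and 6.92 CPM in these 3 groups. Eif2s3y was at 22.0 against 4.61 CPM in the other d8 cells, Uty at 10.6 against 4.32 CPM and Kdm5d at 7.94 against 4.81 CPM. Xist, the RNA of the silenced X of female cells, went the other way, at 133 against 245 CPM, and was read in 40.4% of the thinned Lox and Ccl2 cells and 54.5% of the other d8 cells.

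The same groups of genes can be set beside the other populations. A Y-linked read was found in 32.3% of thinned naive, 5.53% of primed, 7.55% of d16 and 6.56% of d16+10p cells (55.9, 15.4, 14.6 and 23.7% unthinned). The share in d8 cells with epithelial markers was 9.03% (22.8% unthinned), with smooth muscle markers 11.4% and with macrophage markers 20.1%. In the primed and d16 cells past the cut Ddx3y was at 61.9 CPM (44.4 to 84.0) and 51.2 CPM (36.6 to 69.8), against 7.21 and 7.25 CPM in all primed and all d16 cells. Both a Y-linked and an Xist read were found in 10.5% of the thinned Lox and Ccl2 cells and neither in 36.4%, so a single cell often could not be assigned at this depth.

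The Lox and Ccl2 cells were split by a Y-linked read. All of them had passed the same score cut, and the cells without such a read were shallower and can include cells whose Y-linked genes went unread, so the split is a description and small ratios do not show that the cells are alike. Of cells with at least 5000 reads, 710 had such a read and 636 had none, with medians of 25459.5 and 17209.5 reads. Of 9174 genes, 6 (0.0654%) were at least 2-fold higher in the cells with a Y-linked read and 0 (0%) lower. The 6 were Tnfsf15, Prl8a6, Des, Cxcl10, Star and Prg4, all of low level, from 12.8 to 35.4 CPM in the cells with a Y-linked read. A single cell held 274 of the 542 reads of Tnfsf15, a TNF family cytokine, in those cells. Xist was at 97.6 against 188 CPM, a log2 ratio of -0.94. Of the 24 highest genes other than Ddx3y, 0 passed 2-fold, and their ratios ran from -0.89 for Ccl11 to 0.36 for Olr1.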

How the data were processed

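Cells of the 5 populations were tagged through CD9 and CD63, pooled and read in 1 library with BD Rhapsody and TAS-Seq. The values are whole-number counts per gene and cell as deposited. Per the study's methods and processing notes, the authors trimmed reads with cutadapt 2.10, mapped them with Bowtie2 2.3.4.1 to Ensembl transcripts of GRCm38.p6, assigned tags, and removed as doublets the cells whose best tag stood least above the next one. For clustering, the notes name Seurat 2.3.4 and the methods another version. No collapse to molecules was described, so the counts were treated as reads. No further doublet caller was run here.

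The populations are columns of 1 table named by tag. Members and gene lists were chosen with earlier results of these data known. Counts were summed per group of cells and scaled to 1000000 reads, and log2 ratios had 1 CPM added. With 1 sample per population no test was possible, and an exact 95% interval was given instead. For shares, each cell was thinned to 5000 reads. The genes named were the 7 score genes, the 25 with the largest and the 15 with the smallest ratios (predicted genes were counted only), in each list up to 6 past 2-fold in either direction, all members of lists of up to 8 genes, the sex-linked genes and, for the split by Y-linked reads, the 10 largest ratios in either direction. A few genes that the rule names are not reported here. Some genes within 2-fold or below the filter, and genes of the comparisons between populations and classes, were named after their values were seen. Gene positions came from the GENCODE annotation of GRCm38 and promoters from RefSeq, matched by symbol. Alternatives covered the number of cells taken, the score, thinning, scaling, the pseudocount and filters. Python 3.11.15, NumPy 2.4.6, SciPy 1.17.1, R 4.3.3 and edgeR 4.0.16 (TMM factors) were used, and the summing and calling steps were tested on simulated data.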

Additional observations from a re-analysis of the deposited data

How the results depend on the processing

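The 7 score genes, the 25 highest and the 15 lowest genes, 47 in all, kept their direction and stayed past 2-fold under the 18 alternatives that apply to single genes. Because the score genes chose the cells and the others were picked for extreme ratios, this was largely set in advance. The sizes of the ratios moved, for Postn from 2.54 to 4.53 and for Lox from 2.73 to 4.84. Other genes of the lists were recomputed with TMM scaling only, where lower genes close to 2-fold were no longer called. The counts of genes depended on the filter and on the scaling. The 500 higher genes became 880 at a minimum of 1 CPM and 184 at a minimum of 50 CPM, and the 939 lower genes became 1590 and 250 in the same order. With 10 CPM added in place of 1 the lower genes numbered 341, and with TMM scaling 546. The share of primed cells past the cut was 1.97% with 1000 d8 cells taken, 4.22% with 2000, and 2.16% when cells outside 2000 to 8000 genes were left out. The share of d16 cells past the cut was 0.417 and 1.67% with 1000 and 2000 cells taken, 1.40% with a score from thinned cells and 1.23% with the limits on genes. The share of Lox and Ccl2 cells with a Y-linked read was 45.9% without cells above the 95th percentile of reads and 33.7% after thinning. Without the 108 cells that reached the cut of another class, an alternative chosen after seeing the data, 504 genes were higher, and the lower genes also stayed within 1.5 times their count.

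With 1 sample per population and 1 library, a difference between cells and a difference between cultures cannot be told apart, and no interval covers the spread between cultures. The cut through a continuous score sets the number of cells. Genes under 10 CPM, most Hox genes among them, and genes found in few thinned cells such as Ccl11 were limited by depth. No paired analysis was possible because each population was a single sample.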
